A study of Mus musculus with 18 samples.

Results

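Baf3 is a mouse pro-B cell line kept in culture with interleukin-3, and its small RNA was compared here between cells with the SAFB genes disrupted and control cells. Every row of the count table that named a miRNA was described, 1006 of the 1010 rows, and the other 4 were synthetic spike-in RNAs. All cells carried fluorescent reporters for altered forms of miR-15a and miR-16, Cas9 and 1 guide RNA. In the SAFB group the guides were made against Safb1 and Safb2 (genotype Safb1 KO, Safb2 KO), and in the control group against Rag1 (genotype Rag1_KO), a gene with no part in miRNA production. Each group had 2 guides, each guide gave 1 polyclonal population, and each population was sequenced in 3 batches by label, so 6 libraries stood against 6. The knockout populations were sorted for loss of repression of the miR-15a reporter and regrown, so low miR-15a activity was itself selected for. The labels do not say how the control populations were sorted. An ERH group (Erh guides, 6 libraries) shared the model fit and is used only at the end. The mRNAs of the targeted genes were not measured, and the fluorescence of the sort was not analysed here.

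miRNAs are cut as hairpins from long primary transcripts by the Microprocessor, a complex of the nuclease DROSHA and its partner DGCR8, and are then trimmed by DICER. Many hairpins lie in clusters on 1 transcript. Some of these hairpins are poor Microprocessor substrates and are cut well only when a good hairpin lies beside them, which is called cluster assistance; mir-15a beside mir-16-1 is the known example in this cell line. SAFB1 and SAFB2 are nuclear RNA- and chromatin-binding proteins that act in this assistance, and ERH is a small dimeric protein that binds the Microprocessor.

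The mature miRNAs at the centre of the results are shown with their RefSeq sequences (GRCm38.p6), 5′ to 3′, with the seed (bases 2 to 8), which sets most target choice, in capitals. The first set shares 1 seed but not 1 response: mir-15a and mir-15b fell while mir-16 did not.
miR-15a-5p: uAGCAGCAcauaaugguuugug
miR-15b-5p: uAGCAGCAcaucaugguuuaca
miR-16-5p: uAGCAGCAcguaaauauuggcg
The next pairs are neighbours of 1 seed family. The first of each pair fell, and the second fell less or, for mir-181a, rose.
miR-181b-5p: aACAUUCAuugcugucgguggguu
miR-181a-5p: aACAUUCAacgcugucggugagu
miR-29c-3p: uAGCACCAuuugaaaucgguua
miR-29b-3p: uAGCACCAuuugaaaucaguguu
miR-98-5p: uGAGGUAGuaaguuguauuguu
let-7f-5p: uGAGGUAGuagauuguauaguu
The last pairs share a locus but no seed, and are not alike in sequence.
miR-425-5p: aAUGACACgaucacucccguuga
miR-191-5p: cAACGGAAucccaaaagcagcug
miR-192-5p: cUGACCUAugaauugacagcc
miR-194-5p: uGUAACAGcaacuccaugugga

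The hairpins of the mir-425 locus on chromosome 9 are shown for the widest split of a neighbouring pair, with the mature miRNA in capitals. Mir191 (chr9:108568319-108568392, plus strand) and Mir425 (chr9:108568777-108568861, plus strand) lie 384 bases apart in exonic sequence of the long noncoding RNA gene 4833445I07Rik (GENCODE M21, GRCm38).
Mir191: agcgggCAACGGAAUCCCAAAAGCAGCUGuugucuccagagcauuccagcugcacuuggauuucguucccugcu
Mir425: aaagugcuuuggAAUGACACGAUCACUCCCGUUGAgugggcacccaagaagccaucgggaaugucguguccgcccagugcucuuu
RNAfold gave the Mir425 hairpin a minimum free energy of -0.373 kcal/mol per base with 65.9% of bases paired, and the Mir191 hairpin -0.473 kcal/mol per base with 75.7% paired.

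The 12 libraries held between 2900132 and 4470073 miRNA counts. Of the 1006 miRNAs, 328 had no count in any of the 12 and 678 had at least 1. A filter on low counts kept 273, which held 99.987% of the counts; the 405 that were detected but not tested had at most 32 counts in any library. miR-142a, which is largely restricted to blood cells, took 13.4% of control counts. Levels are given in CPM, counts scaled to a common library size, after trimmed-mean (TMM) scaling, and each entry pools both arms of a hairpin and all its gene copies.

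Many miRNAs differed between SAFB and control, some by little and others by much. Of the 273 tested, 153 (56%) had an adjusted p under 0.05 (edgeR quasi-likelihood test), 84 higher (30.8%) and 69 lower (25.3%), and 44 of the 153 differed by less than 0.5 on the log2 scale. Scaling to the spike-ins moved the median log2 fold change of all tested miRNAs from 0.0083 to -0.23 and the split to 44 higher and 58 lower, so a small change has a direction only relative to the other miRNAs. On the log2 scale, miRNA counts per spike-in count came to 8.94 to 9.24 in control guide 2, 8.26 to 8.51 in control guide 1 and 8.09 to 8.60 in the SAFB libraries. The 6 SAFB and 6 control libraries did not overlap in CPM for 100 miRNAs (36.6%), 53 of them higher and 47 lower. Set against 1 control population at a time, 1 SAFB population gave between 98 (35.9%) and 122 calls (44.7%). The control guides gave 0 calls between them (edgeR; 7 at an unadjusted p under 0.05) and the SAFB guides 0 (10 at an unadjusted p under 0.05). Of the called miRNAs, 83 of 84 higher and 69 of 69 lower kept their sign in all 4 population comparisons. These comparisons reuse the libraries that gave the calls, so the agreement is in part fixed by the choice. Without SAFB guide 2 the lower calls went to 38 and the higher to 78. Libraries of 1 population share their cells, and with the 2 populations of a group as the unit an exact permutation test cannot give a p below 0.333.

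**Figure D1:**
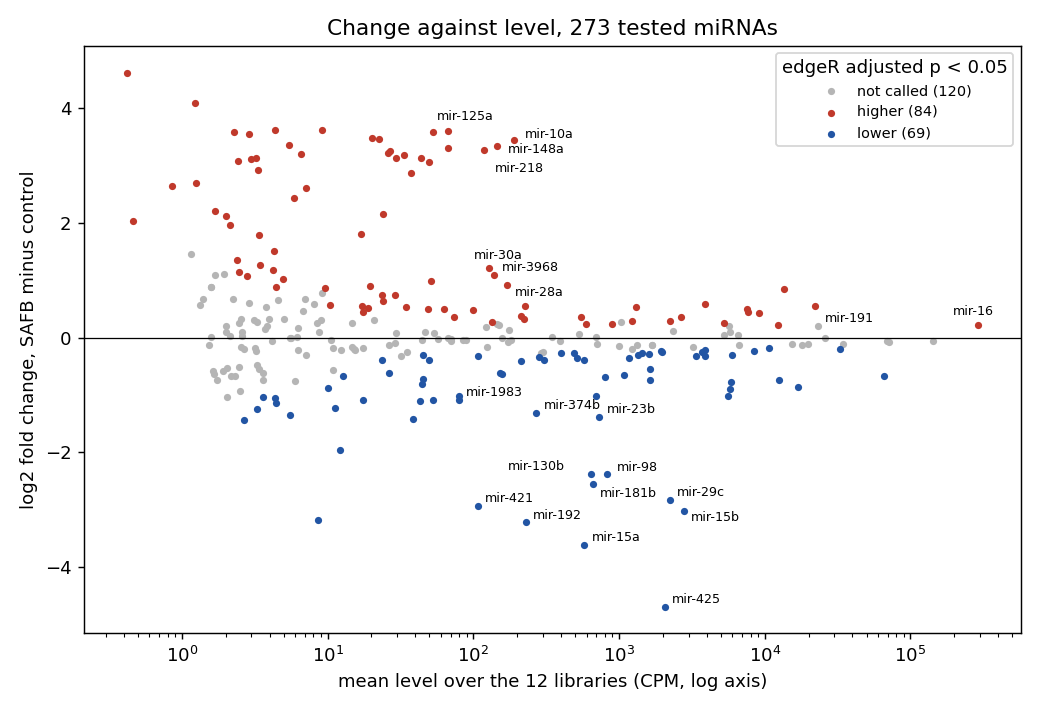
Log2 fold change of SAFB minus control (y axis) against the mean level over the 12 libraries (x axis, CPM, log axis) for 273 tested miRNAs, with called miRNAs in colour (84 higher, 69 lower). Most falls over 2 lie among miRNAs of 100 CPM and more, down to -4.69 for mir-425, with mir-1306 at -3.18 below 10 CPM, while most of the rises over 3 lie at low levels.

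The levels of the larger falls and rises were also summed. Among called miRNAs, 28 had a log2 fold change below -1 and 47 had one above 1. Together the 28 made up 25508 to 29513 CPM in the control libraries and 6152 to 7613 CPM in the SAFB libraries. The 39 that rose by more than 1.5 made up 136 to 296 CPM in control and 1467 to 2438 CPM in SAFB. None of the 39 had a control mean above 32.0 CPM, while 15 of the 28 had one of at least 100 CPM. The cuts for falls and rises differ. A low miRNA could also pass the filter through the group in which it was high, so the low control levels of the 39 are in part fixed by the choice.

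The miRNA that fell most was mir-425. Its level was 3072, 4095 and 4608 CPM (lowest, median and highest of 6) in control and 133, 157 and 173 CPM in SAFB. Every SAFB library was below every control library, and the log2 fold change was -4.69 (SE 0.153, adjusted p = 1.2e-17, edgeR), with -4.79 to -4.59 over the 4 population comparisons. No overlap and 1 direction in all 4 comparisons were conditions for the 12 largest falls and 12 largest rises. For these miRNAs, here and below, both traits were fixed by the choice. Its neighbour mir-191, a common reference miRNA in expression work, was at 19821, 20884 and 23871 CPM in control and 17563, 25292 and 29760.1 CPM in SAFB. These groups overlapped, and mir-191 did not pass the test at 0.21 (adjusted p = 0.11). Under spike-in scaling its sign turned (-0.043), and it was called in 6 alternatives, from 0.22 without a filter to 0.51 without SAFB guide 1. The ratio of the pair within a library needs no scaling: log2 mir-425/mir-191 was -2.45 ± 0.30 in control and -7.32 ± 0.37 in SAFB (SD, n = 6 each), a 29.4-fold shift (exact two-sided permutation p = 0.00216, adjusted 0.00683 over 82 pairs). This p is the smallest that 6 against 6 libraries can give, and each ratio described next as passing had the same p and no overlap between the groups.

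At both mir-15/mir-16 loci the mir-15 hairpin fell and the shared mir-16 entry did not. Mir15a (chr14:61632027-61632110, minus strand, intron of Dleu2) lies 54 bases from Mir16-1, and Mir15b (chr3:69009772-69009835, plus strand, intron of Smc4) lies 66 bases from Mir16-2. mir-15a was at 947, 1066 and 1146 CPM in control and 73.3, 82.5 and 108 CPM in SAFB. Its log2 fold change of -3.61 (SE 0.136, adjusted p = 1.1e-16, edgeR) comes from cells sorted on the activity of this miRNA. mir-15b, on the other locus, was not the target of the reporter by name, though it shares the seed of miR-15a. It was at 4287, 5095 and 5379 CPM in control and 499, 622 and 712 CPM in SAFB, a change of -3.02 (SE 0.0976, adjusted p = 1.2e-17, edgeR). No SAFB library of either miRNA came near a control library. mir-16 was at 253223, 274145 and 277170.0 CPM in control and 291427, 314175 and 328960.0 CPM in SAFB, a change of 0.21 (adjusted p = 0.00053, edgeR) that turned to -0.057 under spike-in scaling (adjusted p = 0.86). The ratio to mir-16 shifted by -3.84 for mir-15a and by -3.24 for mir-15b. Because mir-16 sums both loci, neither ratio measures a single transcript.

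mir-192, a miRNA best known from liver and gut, lies 115 bases downstream of Mir194-2 on chromosome 19 (chr19:6264844-6264932, plus strand, intergenic). It was at 372, 407 and 473 CPM in control and 34.4, 44.0 and 57.7 CPM in SAFB. All SAFB libraries lay below the control libraries, and the change was -3.22 (SE 0.193, adjusted p = 1.3e-12, edgeR). mir-194 was at 116, 139 and 165 CPM in control and 144, 159 and 184 CPM in SAFB and did not pass the test at 0.23 (adjusted p = 0.079); this turned to -0.020 under spike-in scaling, and mir-194 was called in 8 alternatives, from 0.24 with voom to 0.45 without SAFB guide 1. The pair changed order: log2 mir-194/mir-192 was -1.58 ± 0.19 in control and 1.89 ± 0.25 in SAFB (SD, n = 6 each), so mir-192 was the more abundant of the pair in control and the less abundant in SAFB. mir-194 also sums a copy on chromosome 1.

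The mir-181 family, which acts in lymphocyte development and T cell signalling, split by member. mir-181b was at 1021, 1099 and 1270.2 CPM in control and 147, 189 and 259 CPM in SAFB, a change of -2.56 (SE 0.118, adjusted p = 6.6e-15, edgeR). mir-181a was at 2602, 3139.8 and 3605 CPM in control and 3971, 4539 and 5491 CPM in SAFB, a change of 0.58 (SE 0.105, adjusted p = 5.4e-05, edgeR). The libraries of the groups did not overlap for either member, in opposite directions, but mir-181a was not called under spike-in scaling (0.33). Each has 2 gene copies, and at both loci mir-181b lies downstream, by 97 bases on chromosome 1 and 1019 bases on chromosome 2. The ratio mir-181b/mir-181a shifted by -3.16 and passed. The mature sequences differ at several bases, as printed, but reads of short or trimmed ends could be shared.

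mir-29c and mir-29b come from 1 transcript on chromosome 1 (Mir29c, chr1:195037547-195037634, plus strand, exon of A330023F24Rik), and mir-29b has another copy beside mir-29a on chromosome 6. The family is known for repressing collagen and methyltransferase transcripts. mir-29c was at 3561, 3919 and 4230.3 CPM in control and 466, 543 and 659.6 CPM in SAFB, a change of -2.83 (SE 0.0982, adjusted p = 3.3e-17, edgeR). mir-29b was at 2907, 3898 and 4101 CPM in control and 2753, 2973 and 3231 CPM in SAFB, a change of -0.32 (adjusted p = 0.0096, edgeR) with overlapping groups. mir-29b was not called without control guide 1 (-0.12), SAFB guide 1 (-0.17) or SAFB guide 2 (-0.17). The ratio mir-29c/mir-29b went from 0.074 ± 0.17 to -2.45 ± 0.22 on the log2 scale (SD, n = 6 each), from near equal counts to far fewer mir-29c.

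mir-98 belongs to the let-7 family, which represses growth-promoting genes. It lies 785 bases downstream of Mirlet7f-2 in an intron of Huwe1 (Mir98, chrX:151913214-151913321, plus strand). It was at 1257, 1400.0 and 1510.0 CPM in control and 245, 261 and 313 CPM in SAFB, a change of -2.39 (SE 0.0781, adjusted p = 1.2e-17, edgeR). let-7f, which also has a copy in the let-7a cluster on chromosome 13, was at 77542, 80076 and 83920.5 CPM in control and 48671, 49908 and 52337 CPM in SAFB, a change of -0.68 (SE 0.0414, adjusted p = 1.7e-12, edgeR). Both fell in every SAFB library, mir-98 further, and the ratio shifted by -1.71. Of the other entries of the chromosome 13 cluster, let-7a was not called at -0.11 (adjusted p = 0.089), and let-7d was called lower at -0.24 (adjusted p = 0.0030, edgeR). let-7d was not called under spike-in scaling (-0.49) or without control guide 1 (-0.11), SAFB guide 1 (-0.10) or SAFB guide 2 (-0.087). The ratio let-7a/let-7f rose by 0.56 and passed.

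In a second group of loci both neighbours fell, and by different amounts. mir-421 and mir-374b lie 63 bases apart in an intron of Ftx, a noncoding gene of the X-inactivation centre. mir-421 (chrX:103572921-103572996, minus strand) was at 177, 189 and 213 CPM in control and 22.2, 23.4 and 31.8 CPM in SAFB (-2.94, SE 0.111, adjusted p = 1.1e-16, edgeR). mir-374b was at 367, 385 and 408 CPM in control and 137, 151 and 183 CPM in SAFB (-1.32, SE 0.0961, adjusted p = 4.1e-11, edgeR). The pair ratio shifted by -1.62. 

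mir-130b and mir-301b, members of 1 seed family, lie 257 bases apart in an intron of 2610318N02Rik on chromosome 16. mir-130b (chr16:17124061-17124142, minus strand) was at 901, 1097 and 1186 CPM in control and 197, 205 and 230.1 CPM in SAFB (-2.37, SE 0.0867, adjusted p = 7.7e-17, edgeR). mir-301b was at 146, 190.2 and 215 CPM in control and 104, 116 and 136 CPM in SAFB (-0.62, adjusted p = 0.00011, edgeR). Both were lower in every SAFB library, and the ratio mir-301b/mir-130b rose by 1.75.

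The mir-23b locus on chromosome 13 showed a graded fall. mir-23b (chr13:63300484-63300557, plus strand, intron of 2010111I01Rik) was at 1006, 1053 and 1147 CPM in control and 376, 394 and 448 CPM in SAFB (-1.39, SE 0.0644, adjusted p = 7.1e-15, edgeR). mir-27b, 154 bases downstream, was at 6825, 7521 and 8273 CPM in control and 3722, 4007 and 4418 CPM in SAFB (-0.89, adjusted p = 2.4e-10, edgeR). mir-24, which sums a copy on this locus and another on chromosome 8, was at -0.24 (adjusted p = 0.0016, edgeR), which was not called without control guide 1 (-0.12), SAFB guide 1 (-0.077) or SAFB guide 2 (-0.10). The ratio mir-23b/mir-27b shifted by -0.50 and mir-23b/mir-24 by -1.15. The paralogous chromosome 8 cluster moved little, and its members mir-23a, mir-27a and mir-24 lay between -0.36 and -0.24.

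The last of the 12 largest falls, mir-1983, was at 72.5, 111 and 138 CPM in control and 41.8, 50.6 and 59.4 CPM in SAFB (-1.08, SE 0.142, adjusted p = 7.3e-07, edgeR). It is annotated alone, with no tested miRNA within 10 kb.

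**Figure D2:**
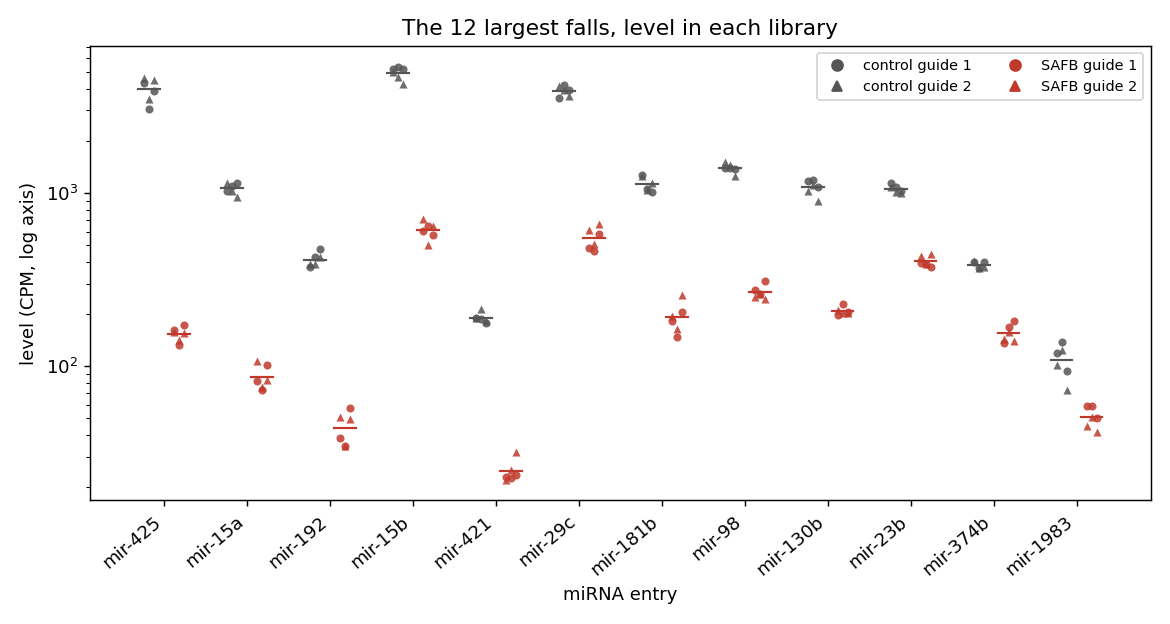
Level in each of the 12 libraries (y axis, CPM, log axis) for the 12 miRNAs with the largest falls among those of at least 100 CPM (x axis); circles are guide 1, triangles guide 2 and bars the mean of 6. By the rule that chose the 12, every SAFB library lies below every control library, with both guides in 1 direction.

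Over all neighbouring tested miRNAs, 82 pairs on the same strand within 10 kb could be formed. The log2 ratio within a library differed between SAFB and control for 32 of the 82 (exact permutation test, adjusted p under 0.05), and 26 pairs had no overlap. The ratio moved by more than 1 for 15 pairs, and each of the 15 passed. For pairs in which both members have 1 gene copy, 18 of 49 passed. Pairs share members, so they are not independent. Large ratio shifts were also seen for low miRNAs, and the next 2 pairs were chosen after their values were seen. mir-1306 fell from 15.6 ± 2.65 to 1.70 ± 1.01 CPM (SD, n = 6 each) while its neighbour mir-3618, at a mean of 2.14 CPM over the 12 libraries, did not pass. mir-99a rose from 1.39 ± 0.70 to 16.9 ± 6.42 CPM (SD, n = 6 each), and the ratio to its abundant neighbour let-7c shifted by 3.71 on the log2 scale. mir-99a had at most 6 counts in any control library and passed the filter through knockout libraries. Its rise, and the place of this pair among the 15, were thus in part fixed by the filter.

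**Figure D3:**
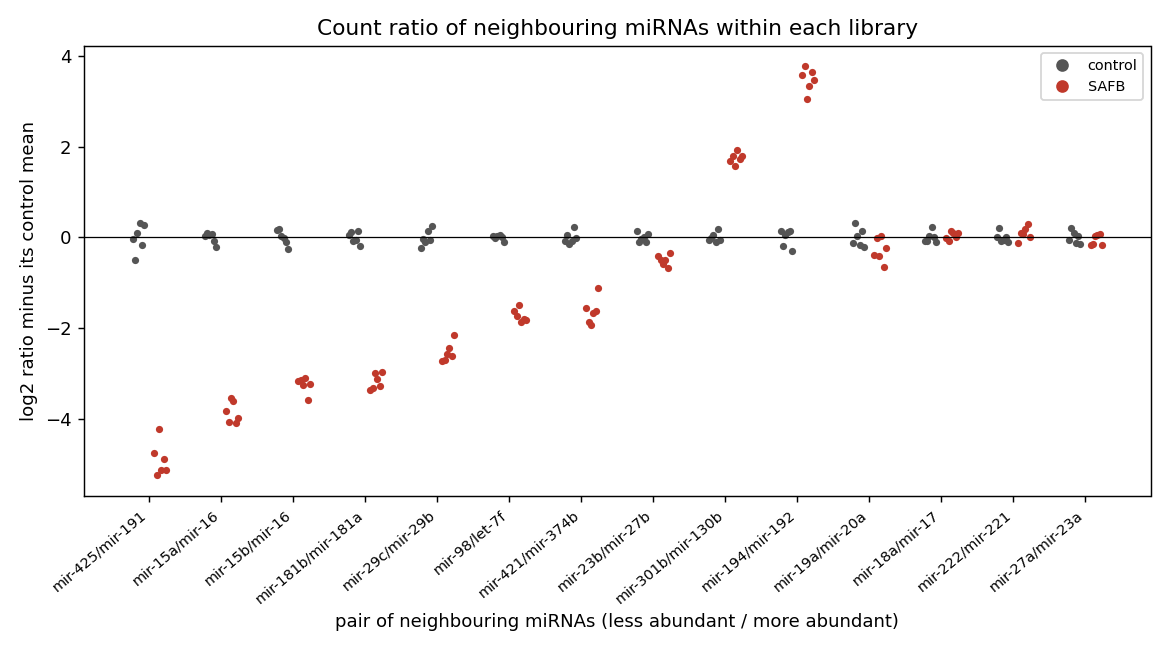
Log2 count ratio of neighbouring miRNAs in each library, minus the control mean of that ratio (y axis), for 14 pairs (x axis, named as less abundant over more abundant member); each point is 1 library. The SAFB points of the first 10 pairs stand apart from control, from -4.88 for mir-425/mir-191 to 3.47 for mir-194/mir-192, and those of the last 4 overlap it.

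Of 39 listed clusters, 32 had at least 2 tested members, and in 15 of these the members' fold changes spread over more than 1 log2 unit. Entries with several gene copies, such as mir-16, count in each cluster that lists them, and 1 listed pair, mir-16/mir-195, has no common locus in the annotation used. The mir-17-92 cluster on chromosome 14, a growth-promoting cluster of lymphomas, had 6 of 6 members called lower, from -1.02 for mir-19a to -0.69 for mir-18a, beside 25.3% of all tested and 42.2% of those of at least 100 CPM, as these are. Its most abundant members went from 21646 ± 2176 to 11985 ± 1285 CPM for mir-19b, and from 15608 ± 1694 to 9339 ± 918 CPM for mir-20a (SD, n = 6 each). Of 15 ratios inside this cluster, 1 passed. mir-18a/mir-17 differed by 0.049 (exact permutation p = 0.44, adjusted 0.61) and mir-17/mir-20a by -0.0029 (exact permutation p = 0.98, adjusted 0.98), while mir-19a/mir-19b differed by -0.16 (exact permutation p = 0.0065, adjusted 0.018). The latter did not pass without control guide 1 (-0.15), control guide 2 (-0.18) or SAFB guide 2 (-0.14). Other ratios with mir-19a did not pass: mir-18a/mir-19a by 0.32 (exact permutation p = 0.026, adjusted 0.063), mir-17/mir-19a by 0.27 (exact permutation p = 0.052, adjusted 0.11) and mir-19a/mir-20a by -0.28 (exact permutation p = 0.067, adjusted 0.13).

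In the paralogous mir-106b-25 cluster in Mcm7, 1 of 3 members was called higher, near the 30.8% of all tested, and none lower. mir-25, a regulator of the cell cycle inhibitor p57, was at 16893, 17875 and 19503 CPM in control and 22619, 26707 and 28710.4 CPM in SAFB (0.55, SE 0.0605, adjusted p = 4.4e-08, edgeR), with no overlap, but was not called under spike-in scaling (0.29). mir-93 lay at -0.0038 (adjusted p = 0.98), a value whose sign turned in several other fits, and mir-106b at -0.11 (adjusted p = 0.30). The ratio mir-25/mir-93 rose by 0.56, and mir-106b/mir-25 fell by 0.66, both past the test. mir-221 and mir-222, a pair that acts on p27, were not called, and their ratio differed by 0.094 (exact permutation p = 0.24, adjusted 0.38). In the mir-322 to mir-351 cluster on the X chromosome, 4 of 6 members were called lower and 1 higher, within -0.35 to 0.24, beside 25.3% lower and 30.8% higher of all tested. Of those of at least 100 CPM, as all but mir-450a are, 42.2% were lower and 23.9% higher. The ratios with mir-542, the member called higher, all passed (exact permutation p = 0.00216, adjusted 0.00683 each). Among them, mir-450b/mir-542 fell by 0.58 and mir-542/mir-503 rose by 0.48. The other ratios inside this cluster did not pass.

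Falls were also counted by whether a miRNA gene lay close by. Over all tested miRNAs, 28 of 273 were called lower by more than 1, among them 13 of the 76 with a tested neighbour within 10 kb (17.1%), 14 of the 187 annotated without one (7.49%) and 1 of the 10 not annotated. Among the 109 with a mean of at least 100 CPM, 54 had such a neighbour, and 12 of these (22.2%) were called lower by more than 1: mir-425, mir-15a, mir-192, mir-15b, mir-421, mir-29c, mir-181b, mir-98, mir-130b, mir-23b, mir-374b and mir-19a. Of the 54 annotated miRNAs without a tested neighbour, 1 was (1.85%), mir-5099, which went from 933 ± 149 to 463 ± 84.2 CPM (SD, n = 6 each). In any size, 33 of the 54 with a neighbour were called lower and 5 higher, against 13 lower and 20 higher of the 54 without. These counts are descriptions and were not tested as groups; the background over the 109 was 46 lower and 26 higher.

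The fallen hairpins had no fixed place beside their neighbour. In the 10 pairs of the largest falls, the fallen or further fallen hairpin lay downstream on the transcript in 7 and upstream in 3, at 54 to 785 bases from the other. RNAfold energies were compared where RefSeq held both hairpins. The fallen hairpin was the less stable per base in 7 of 10 comparisons with a neighbour that was not itself among the 12, over 8 fallen miRNAs, but the medians were close (-0.389 against -0.395 kcal/mol per base). The gap was -0.389 against -0.541 for Mir23b and Mir27b, and -0.422 against -0.550 for Mir192 and Mir194-2, while Mir29c (-0.395 against -0.384 for Mir29b-2), Mir181b-1 (-0.399 against -0.334 for Mir181a-1) and Mir23b beside Mir24-1 (-0.389 against -0.387) went the other way. Among miRNAs of at least 100 CPM, the median energy per base was -0.392 for those that fell by more than 1 (12 of 13 with a hairpin), -0.451 for those not called and -0.394 for those called higher. Over all tested it was -0.399 for those that fell by more than 1, -0.418 for those not called and -0.436 for those called higher. These medians were not tested.

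Sizes also differed by abundance class. Of 18 miRNAs at 10000 CPM and above, 9 were called (4 higher, 5 lower), none by more than 1 on the log2 scale. From 1000 to 10000 CPM, 30 of 43 were called, 21 of them lower, and 4 fell by more than 1. Under spike-in scaling the calls went to 4 in the class from 10000 CPM and to 14 in the class from 1000 CPM. From 100 to 1000 CPM, 33 of 48 were called, with 9 falls and 5 rises over 1. From 10 to 100 CPM, 44 of 68 were called, 28 of them higher, and rises over 1 (14) outnumbered falls over 1 (8). Below 10 CPM, 37 of 96 were called, 30 higher and 7 lower, with 28 rises over 1. The filter on low counts took in all 18 libraries, so a low miRNA could enter through the group in which it was high, and the split of this class is in part fixed by it. In 20 of these 30 every control library was under the filter's minimum count of 10. Lower counts also allow fewer calls at a given size. The top class took 83.1% of the counts in control and 84.8% in SAFB.

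**Figure D4:**
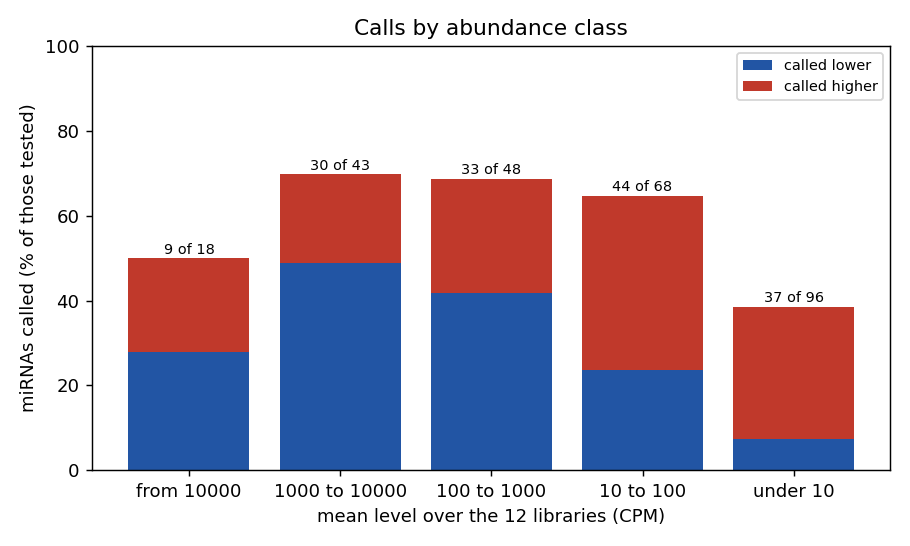
Percentage of tested miRNAs called lower (blue) and higher (red) in each class of mean level over the 12 libraries (x axis, CPM); numbers above the bars give called of tested. Calls went from 9 of 18 in the top class to 37 of 96 in the lowest, and the lower calls outnumbered the higher ones in the classes from 100 CPM.

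The 10 most abundant miRNAs of the 12 libraries moved by less than 1 on the log2 scale, which for such levels can still be many CPM. let-7f, described above, fell by 0.68 and mir-25 rose by 0.55. mir-16, also described above, was called higher at 0.21 and took 24.8% of the counts in control and 29.6% in SAFB. mir-142a lay at -0.062 (adjusted p = 0.38), let-7i at -0.067 (adjusted p = 0.25), and mir-21a, an anti-apoptotic miRNA common in tumours, at -0.064 (adjusted p = 0.46), none past the edgeR test. let-7c was at -0.20 (adjusted p = 0.042, edgeR) with overlapping groups, and was not called without any 1 of the 4 populations (-0.14 to 0.015). The signs of mir-142a, let-7i, mir-21a, let-7a and let-7c turned when 1 population was left out.

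Sums and shares were taken over the entries of a seed family. The entries with the AGCAGCA seed (mir-15a, mir-15b, mir-16, mir-195a, mir-322 and mir-497a) summed to 285102 ± 9978 CPM in control and 321386 ± 17253 CPM in SAFB (SD, n = 6 each), and the share of mir-16 went from 94.3% to 97.1%. In the mir-181 family (ACAUUCA) the sum was 4249.97 ± 544 CPM in control and 4861 ± 598 CPM in SAFB, and the share of mir-181a went from 73.1% to 95.9%. In the mir-29 family (AGCACCA) the sum went from 28304 ± 1423 to 22768 ± 1369 CPM, and the share of mir-29a from 73.1% to 84.4%. For mir-10a and mir-10b (ACCCUGU) the sum was 40.2 ± 13.6 CPM in control and 447 ± 162 CPM in SAFB, with mir-10a at 79.5% and 78.7%. For mir-196a and mir-196b (AGGUAGU) it was 23.0 ± 8.89 and 212 ± 66.3 CPM, with mir-196b at 55.1% and 58.4%. For mir-27a and mir-27b (UCACAGU) it was 8848 ± 565 and 5095 ± 303 CPM, with mir-27b at 85.1% and 79.9%. For mir-130b and mir-301a (AGUGCAA), without mir-301b, which is not in this sum, both differed: the sum was 2399.97 ± 221 CPM in control and 1358 ± 81.2 CPM in SAFB, and the share of mir-301a 55.0% and 84.6%. For mir-125a, mir-125b and mir-351 (CCCUGAG) the sum was 455 ± 36.1 and 564 ± 88.6 CPM, and the share of mir-351 95.9% and 64.2%. These sums and shares were not tested.

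The largest rises started from low levels. Among miRNAs that reached 100 CPM, 5 rose by more than 2. mir-125a, which acts in blood stem cells, was at 5.76, 9.96 and 15.7 CPM in control and 93.8, 105 and 200.3 CPM in SAFB (3.61, SE 0.230, adjusted p = 3.6e-12, edgeR). mir-10a, encoded in the Hoxb cluster, was at 19.0, 31.5 and 48.5 CPM in control and 193, 334 and 529.9 CPM in SAFB (3.46, SE 0.252, adjusted p = 4.1e-11, edgeR). mir-148a was at 15.2, 24.6 and 41.7 CPM in control and 199.8, 239.6 and 437 CPM in SAFB (3.35, SE 0.246, adjusted p = 4.3e-11, edgeR). By the rule that chose them, all SAFB libraries of these lay above all control libraries. mir-196b, at the Hoxa9 locus, was at 8.03, 11.8 and 18.8 CPM in control and 96.8, 111 and 186 CPM in SAFB (3.30, SE 0.225, adjusted p = 1.2e-11, edgeR). mir-218, a miRNA of motor neurons with copies in introns of Slit2 and Slit3, was at 16.6, 20.6 and 29.6 CPM in control and 149.7, 219 and 253 CPM in SAFB (3.27, SE 0.309, adjusted p = 3.8e-09, edgeR). Both were again higher in every SAFB library, by the same rule.

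The 39 that rose by more than 1.5 ranged from 1.52 to 4.63, with quartiles of 2.63, 3.14 and 3.46, and 23 of the 39 lay between 3 and 4. The groups did not overlap for 32 of them, beside 53 of all 273 tested (19.4%) that were higher without overlap. The 39 were chosen for their rise, and some passed the filter only through the knockout libraries, so this count is no test. In 16 of them at least 1 control library was at 0, which leaves the size of their rise poorly fixed. The mir-182/mir-183/mir-96 cluster, known from sensory cells, rose by 3.13 to 3.49, with 3 of 3 called higher, beside 30.8% of all tested. Of these, mir-96 had at most 6 counts in any control library and passed the filter through knockout libraries. The count of 3 was thus in part fixed by the filter. The level of mir-182 went from 5.97 ± 1.93 to 52.6 ± 14.5 CPM (SD, n = 6 each). At the Spaca6 locus on chromosome 17 the rises were uneven. mir-99b rose from 3.70 ± 1.05 to 41.4 ± 13.3 CPM (SD, n = 6 each; 3.46) and mir-125a by 3.61, and let-7e between them rose from 83.4 ± 4.32 to 116 ± 13.4 CPM (0.48, adjusted p = 0.00013, edgeR). The ratios mir-125a/let-7e and mir-99b/let-7e rose by 3.16 and 2.94, both past the test, while mir-99b/mir-125a differed by -0.22 (exact permutation p = 0.50, adjusted 0.64).

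Markers of other cell types were counted beside these rises and in part are the same miRNAs: mir-10a, mir-10b, mir-196a, mir-196b, mir-615, mir-218, mir-9, mir-129, mir-153 and mir-375 are among the 39. Of 50 listed markers, 25 were tested, 16 were called higher and 1 lower, against 30.8% and 25.3% of all tested miRNAs. The median log2 fold change of the 25 was 0.58 against 0.0083. Of the 16, mir-615, mir-375, mir-129 and mir-153 had at most 5 counts in any control library. They passed the filter through knockout libraries, so the tally and the median are in part fixed by it. The summed level of the listed markers was 14284 to 19675 CPM in control and 21828 to 27970 CPM in SAFB, most of it mir-223. HOX-locus miRNAs were called higher in 5 of 5, with sums of 41.2 to 96.6 CPM in control and 447 to 885 CPM in SAFB. Of these, mir-615 had at most 5 counts in any control library, so its place in the count was in part fixed by the filter. Neuronal miRNAs were called higher in 5 of 6 tested, with sums of 1867 to 2280.2 and 2427 to 2998 CPM. Most of these sums was mir-128, at means of 2026 CPM in control and 2476 CPM in SAFB (0.29). Of the 5, mir-129 and mir-153 had at most 6 and 7 counts in any of the 12 libraries and entered the test through the ERH libraries. The neuron-defining mir-124 had 0 counts in all control libraries and at most 2 in any SAFB library, and mir-153 had 0 counts in control. Epithelial markers were called higher in 3 of 5 tested, with sums of 145 to 203 and 196 to 225 CPM. The erythroid markers mir-451a and mir-144 had at most 6 counts in any of the 12 libraries and were not tested. Of the other lists, mir-375 (pancreas), mir-143 (fibroblasts and smooth muscle) and mir-223 (myeloid cells) were called higher and mir-126a (endothelium) lower. Muscle, liver and pluripotency markers gave no call, and mir-206, mir-133b, mir-208a, mir-217, mir-302c and 5 of the mir-290 cluster were at 0 throughout. The part of other cells in the rises was not tested.

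A few further rises came from expressed miRNAs. mir-223, the myeloid marker, was at 7511, 8232 and 13199.6 CPM in control and 15010.0, 16989.9 and 21058 CPM in SAFB (0.86, SE 0.150, adjusted p = 4.0e-05, edgeR). Its log2 difference was 1.11 in batch 1, 1.11 in batch 2 and 0.45 in batch 3, where the control libraries stood highest (12805 and 13199.6 CPM). mir-28a, in an intron of Lpp, was at 111, 121 and 126 CPM in control and 185, 225 and 248 CPM in SAFB (0.91, SE 0.0955, adjusted p = 2.2e-08, edgeR). mir-30a went from 76.7 ± 12.1 to 179 ± 31.6 CPM (SD, n = 6 each; 1.22, adjusted p = 3.0e-07, edgeR), and mir-3968 from 88.9 ± 8.75 to 189.8 ± 45.1 CPM (SD, n = 6 each; 1.10, adjusted p = 2.4e-07, edgeR). None of these groups overlapped, again by the rule that chose them. mir-1839, at 0.55 (adjusted p = 0.00058, edgeR), closed the 12 largest rises and was not called under spike-in scaling (0.30).

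**Figure D5:**
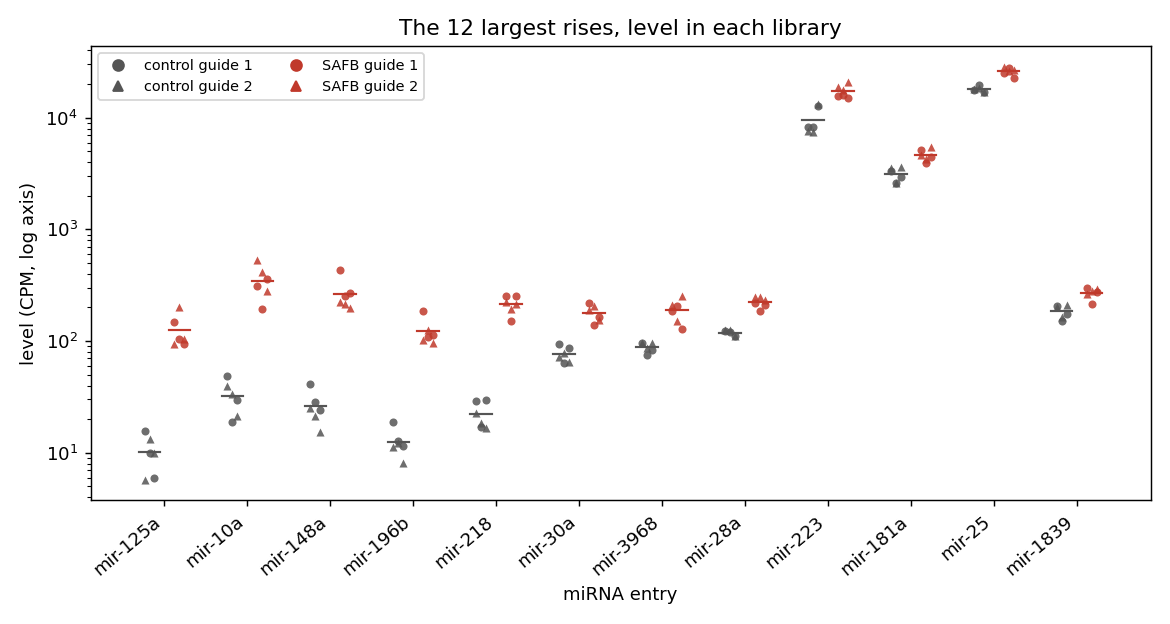
Level in each library (y axis, CPM, log axis) for the 12 miRNAs with the largest rises among those of at least 100 CPM in either group (x axis); circles are guide 1, triangles guide 2 and bars the mean of 6. The first 5 start below 50 CPM in every control library, and mir-223, mir-181a and mir-25 rise from 2602 CPM and more by less than 1 on the log2 scale.

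Of 23 blood and immune miRNAs listed and tested, 6 were called higher and 8 lower, beside 30.8% higher and 25.3% lower of all tested. These shares lie near the background and are no result about the list, and their median log2 fold change was -0.064 against 0.0083 for all tested. The lowest were mir-181b and mir-150, a miRNA of mature lymphocytes that went from 19.3 ± 3.96 to 4.91 ± 1.96 CPM (SD, n = 6 each; -1.96, adjusted p = 1.2e-06, edgeR). The highest were mir-99b and mir-342, which went from 5.08 ± 1.97 to 48.2 ± 17.6 CPM (SD, n = 6 each; 3.25, adjusted p = 9.6e-10, edgeR). Of 7 listed miRNAs made without DROSHA, 3 were tested: mir-320 was called higher (0.36, adjusted p = 0.031, edgeR), and mir-484 (-0.25) and mir-877 (-0.57) were not called.

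The ERH knockout libraries share the control libraries with SAFB, so the knockouts were set directly against each other. Of the 12 largest falls, 8 were higher in ERH than in SAFB (edgeR, adjusted p under 0.05) under each of TMM, total-count and spike-in scaling, and so were 6 of the 12 largest rises. The falls were chosen for low values, and the rises for high values, in these same SAFB libraries. That choice by itself tends to place ERH above SAFB for the falls and below it for the rises, so these counts are in part fixed. Of the rises, 3 were lower in ERH under TMM, mir-223 (-0.92), mir-25 (-0.65) and mir-3968 (-0.36), 2 when scaled to total counts and 0 to the spike-ins. The same test called 65 of all 273 miRNAs higher in ERH with TMM (23.8%), 115 when total counts set the scale (42.1%) and 111 when the spike-ins did (40.7%); whether the falls differed from the rest was not tested. The widest gaps among the 12 falls were for mir-181b, at 192 ± 38.9 CPM in SAFB and 729.8 ± 87.0 CPM in ERH (1.92, adjusted p = 6.6e-12), and mir-192, at 44.2 ± 9.71 and 156 ± 55.2 CPM (1.82, adjusted p = 6.2e-08; SD, n = 6 each; both edgeR). Another 3, mir-15b, mir-98 and mir-374b, were lower in ERH under TMM only, where 15.8% of all tested were lower.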

How the data were processed

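Small RNA libraries were made with a QIAGEN QIAseq kit from total RNA with 4 spike-ins, per the labels' protocols. The authors deposited raw read counts per miRNA, without normalization; SAMtools is named in the submitters' processing notes, and aligner, build, collapsing of molecular identifiers and handling of reads with several matches are not given in the sources used here. Totals were 2900132 to 4470073 counts. miRNAs were kept by filterByExpr (minimum count 10, by population) and tested in edgeR 4.0.16 (quasi-likelihood; limma 3.58.1, R 4.3.3), TMM scaling, over 18 libraries with 1 mean per genotype and Benjamini-Hochberg adjustment. Of 200 miRNAs changed in simulated data 89 passed the filter. The test called 100% of the 89 and 0% of its calls were unchanged ones. The simulated libraries were independent draws with a common dispersion, and the changes were large. They therefore do not show how the test does on libraries that share cells, or on small changes. Ratios used a pseudocount of 0.5 and exact permutation (scipy 1.17.1). Genes came from GENCODE M21 (956 of 1006 matched), hairpins from RefSeq (837 matched), folded with RNAfold 2.7.2. Named were the 12 largest falls and 12 largest rises (adjusted p under 0.05, at least 100 CPM in a group, no overlap, 1 direction in all 4 population comparisons), their tested neighbours within 10 kb, the 10 most abundant, and the extremes of each list. Members and lists were chosen with earlier results of these data known. Nothing in the labels says that the libraries of a population came from separate cultures, so p-values may measure technical spread. Deviations from the population means correlated by 0.20 on average within a labelled batch (18 pairs, -0.27 to 0.72) and by -0.10 between batches (36 pairs). These deviations cancel within a population, so the value between batches largely follows from the value within them. Whether the batch number pairs libraries was not tested. Alternatives were other scalings, no filter, DESeq2 1.42.0, the batch as a block, voom, summed populations and leaving out populations or a library.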

Additional observations from a re-analysis of the deposited data

Results flagged for a closer look

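Of 82 groups of 6 libraries examined, 3 held a library set apart from the rest. Its gap to the nearest other, as a share of the range on the log scale of CPM, exceeded Dixon's critical value. Chance gives about 1 in 20. For mir-421, control guide 2 of batch 2 stood at 213 CPM against 177 to 189.96 CPM in the other 5 (gap 0.6255 of the log range). SAFB guide 2 of batch 3 stood at 31.8 CPM against 22.2 to 25.1 CPM (gap 0.660). For mir-148a, SAFB guide 1 of batch 1 stood at 437 CPM against 199.8 to 267 CPM (gap 0.628), and the same library had the highest sum of the 39 large rises among SAFB libraries (2438 CPM). Without it the falls and rises named kept their direction, which was in part fixed by how they were chosen.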

How the results depend on the processing

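The 12 largest falls kept their sign and their call under every alternative run. So did the 12 largest rises, except that mir-181a (0.33), mir-25 (0.29) and mir-1839 (0.30) were not called under spike-in scaling. Of the 26 pair ratios recomputed, the others kept sign and side of the threshold, while mir-19a/mir-19b lost its call when a population was left out (-0.18 to -0.14) and mir-17/mir-20a, not called, changed sign (-0.087 to 0.081), and 25 to 32 pairs passed over the alternatives. Spike-in scaling gave 102 calls (44 higher, 58 lower), 4 in the class from 10000 CPM and 14 in that from 1000 CPM. It turned mir-16 to -0.057, mir-191 to -0.043 and mir-194 to -0.020. mir-93 turned positive with DESeq2 size factors (0.0392), total counts (0.0341), no filter (0.0015), DESeq2 (0.0392) and the 12 libraries alone (0.0347). Without a filter 149 of 726 miRNAs were called. With the batch as a replicate block 155 were called (84 higher, 71 lower) and 31 pairs passed, with no change of call among the 24 largest changes.

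Leaving out 1 population gave 116 to 137 calls, and without SAFB guide 2 the lower calls went to 38, the lowest (55 without SAFB guide 1 of batch 1, the highest). The median of all miRNAs lay at 0.15 without SAFB guide 2 and at 0.067 to 0.19 over the 4 populations. The cause was not tested. These settings gave -0.072 to 0.061 for mir-106b, 0.0030 to 0.22 for mir-93, 0.0034 to 0.10 for mir-142a, -0.0050 to 0.14 for let-7i, -0.053 to 0.10 for mir-21a, -0.073 to 0.077 for let-7a and -0.14 to 0.015 for let-7c. In ERH against SAFB, scalings added after seeing the data left 0 of the 12 falls lower in ERH under total counts and 0 under spike-ins, and 0 of the 12 rises lower under spike-ins. Below 10 CPM depth limits what can be called.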
